A study of Mus musculus with 2 samples.

Results

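The 194 genes described here are the solute carriers (Slc genes) that could be counted in single cells of healthy mouse liver. They were taken from a table of 22508 genes by symbol, as every gene whose name starts with Slc and a digit and that had at least 200 UMIs (unique molecular identifiers, counted RNA molecules) over all cells. Of 304 genes with such a name 194 reached that number and 110 did not. Just inside the limit stood Slc4a3 and Slc2a3 with 200 UMIs each, Slc6a9 with 202 and Slc47a1 with 205, and just outside it Slc19a1 with 199, Slc2a6 and Slc16a13 with 195 each and Slc44a3 with 194. At the other end Slc43a3 had 21170 UMIs, Slc29a1 20287 and Slc25a3 19351. The members were thus chosen by their name and their summed UMIs, and these sums are given as a description. The name is no proof of transport, since 5 members (Slc9a3r1, Slc9a3r2, Slc4a1ap, Slc7a6os and Slc2a4rg-ps) are named after a carrier and are not known as carriers themselves.

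Solute carriers move amino acids, sugars, organic ions, metals, vitamins and nucleosides across the plasma membrane and across the membranes of mitochondria, lysosomes, endoplasmic reticulum and Golgi apparatus. In the liver, hepatocytes use them to clear bile acids, drugs and fatty acids from sinusoidal blood and to pass intermediates of the urea cycle and gluconeogenesis in and out of mitochondria. Cholangiocytes, which line the bile ducts, use others to change the bile, and endothelial cells, Kupffer cells (the resident macrophages) and stellate cells (the vitamin A-storing pericytes) feed themselves from the same blood.

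The study had 1 group of 2 samples, WT replicate 1 and WT replicate 2, each of healthy C57BL/6 mice aged 8 weeks with no treatment or other genotype, and the labels do not say how many animals each sample came from. Liver was taken apart with enzymes, cleaned on a Percoll density gradient and read with the Chromium 3' method, which counts the 3' ends of transcripts. Replicate 1 held 7362 cells and 40645060 UMIs, and replicate 2 held 2341 cells and 11867207 UMIs. Cells were put into types by UMIs of marker genes, and the types are called "-like" because they rest on markers alone.

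After the cell filter 9106 cells were kept, and 8280 of them met the marker gate of exactly 1 type. They gave 17 types with at least 20 cells, of which 16 were read from replicate 1 and the stellate-like type (2312 cells) from replicate 2. The largest were sinusoidal endothelial-like (2395 cells), Kupffer-like (2384), hepatocyte-like (201), central vein endothelial-like (191), mesothelial-like (154, the cover of the liver surface) and T-like cells (144). Portal fibroblast-like (97 cells), portal and arterial endothelial-like (94) and cholangiocyte-like cells (88) were of middle size. The remaining types, lymphatic endothelial-like and the rarer immune types, had 21 to 33 cells, so that 1 UMI in neutrophil-like cells was worth 21.3 CPM. CPM are UMIs of a type scaled to a sum of 1000000, and in them a level is given per type, with an exact Poisson interval of 95% that covers counting error only. Each type had 1 library, cells are not replicates, and the type and its library cannot be told apart for stellate-like cells, so no test was made and a gene is called high in a type by size alone, at least 2-fold above every other type with at least 50 UMIs. Hepatocyte marker genes took 7.76% of UMIs in hepatocyte-like cells, 0.448% in cholangiocyte-like cells, 0.0393 to 0.196% in the other types of replicate 1 and 0.00982% in the stellate-like cells of replicate 2. The level that hepatocyte RNA mixed in by this share would give is set beside some values as the mixed-in level, and whether such UMIs came from free RNA, doublets or the cells themselves was not tested.

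Solute carriers together took 0.980% of all UMIs of hepatocyte-like cells (0.964 to 0.996), the highest pooled share of the 17 types. The share was lower with each cell weighted equally, and the rank among all types was not read under that scaling. Central vein endothelial-like cells followed at 0.860%, Kupffer-like cells at 0.832% and sinusoidal endothelial-like cells at 0.803%. Stellate-like cells stood at 0.592% (0.588 to 0.596) and portal fibroblast-like cells at 0.544%. The lowest were the T-like cells with 0.429% and the conventional dendritic-like cells with 0.425% (0.403 to 0.449). The number of members at 10 CPM or more was 128 in cholangiocyte-like, 125 in Kupffer-like, 110 in sinusoidal endothelial-like, 108 in stellate-like and 104 in hepatocyte-like cells, so the type with the highest share did not have the most members at that level. When every cell was thinned to 1000 UMIs, the median cell held UMIs of 7 members in the hepatocyte-like, sinusoidal endothelial-like, central vein endothelial-like and Kupffer-like types, 5 in stellate-like and 4 in T-like cells. Before thinning, the medians were 13 in hepatocyte-like, 25 in sinusoidal endothelial-like and in Kupffer-like, 30 in central vein endothelial-like, 20 in stellate-like and 12 in T-like cells, and 45 hepatocyte-like cells were too shallow to be thinned.

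**Figure D1:**
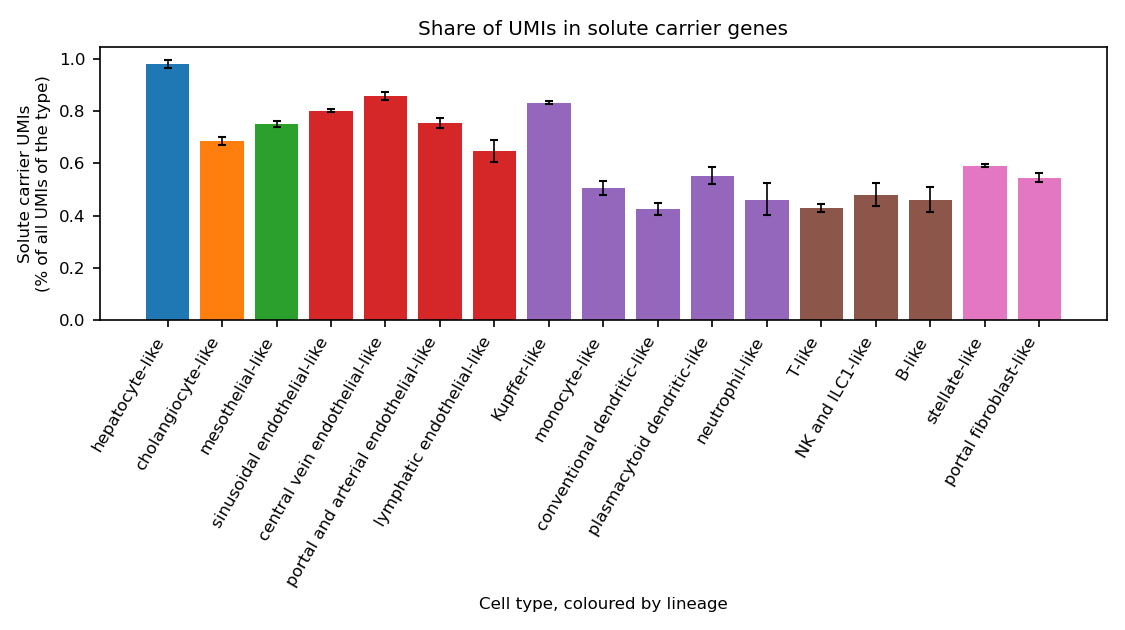
Share of all UMIs of a cell type that fell on the 194 solute carrier genes (y axis, percent; x axis, cell types coloured by lineage; bars, pooled share; whiskers, 95% interval for counting error). Hepatocyte-like cells stand highest at 0.980%, and the lymphoid-like, neutrophil-like and conventional dendritic-like types lowest, at 0.425 to 0.480%.

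A single type stood at least 2-fold above every other type for 44 members (22.7%), against 12.8% of 11883 genes with at least 200 UMIs treated the same way, marker genes left out. The median ratio of the highest to the next type was 1.42 over the members and 1.27 over those genes. Only 107 members had 50 UMIs in their highest type and so could be called, and the 87 others had fewer in theirs. Of the 11883 genes 5893 had 50 UMIs in their highest type. The interval of the ratio lay wholly above 2 for 23 of the 44 genes. Hepatocyte-like cells held 27 of the 44 (13.9% of members, background 4.18%), Kupffer-like cells 5 (2.58%, background 1.24%), cholangiocyte-like cells 4 (2.06%, background 1.32%), mesothelial-like cells 3 (1.55%, background 1.29%) and portal and arterial endothelial-like cells 2 (1.03%, background 0.32%). With only types of at least 80 cells compared, the Kupffer-like count was 11, a rule that was not counted over all genes. Lymphatic endothelial-like, conventional dendritic-like and plasmacytoid dendritic-like cells held 1 each, with backgrounds of 0.252, 0.194 and 0.463%. Stellate-like cells held 0 (background 1.71%), and so did portal fibroblast-like cells (background 0.816%), sinusoidal endothelial-like cells (0.118%) and central vein endothelial-like cells (0.101%). The monocyte-like (background 0.185%), neutrophil-like (0.21%), T-like (0.21%), NK and ILC1-like (0.109%) and B-like types (0.0421%) held 0 as well. By substrate, the called share was 5 of 12 for bile acids and organic ions, 2 of 5 for fatty acids, 9 of 27 for amino acids, 10 of 37 for mitochondrial carriers, 3 of 9 for vitamins and choline, 2 of 11 for carboxylates and phosphate, 4 of 22 for ions, 4 of 23 for metals, 2 of 15 for sugars, 3 of 26 for nucleosides and nucleotide sugars, 0 of 5 for genes named after a carrier and 0 of 2 for others.

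**Figure D2:**
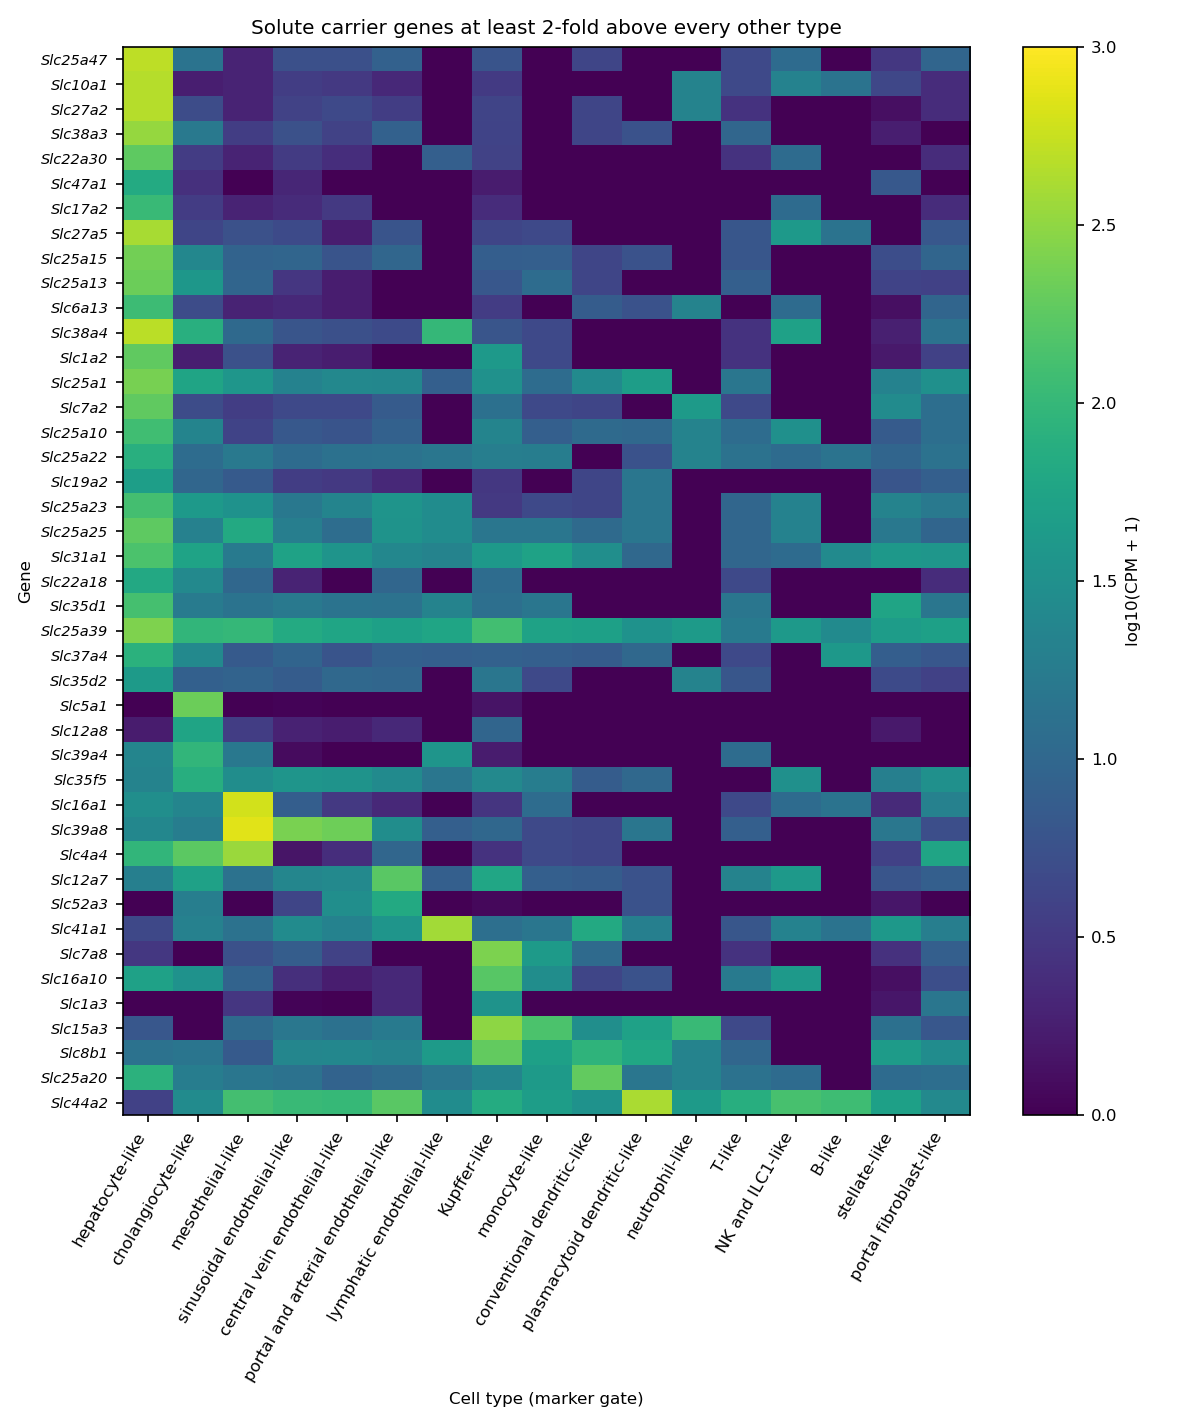
Levels of solute carrier genes that stood at least 2-fold above every other type (rows, genes; columns, cell types; colour, log10 of CPM plus 1). The upper rows, down to Slc35d2, are brightest in hepatocyte-like cells, and the lower rows in cholangiocyte-like, mesothelial-like, endothelial-like, Kupffer-like and dendritic-like cells.

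Of 12 carriers of bile acids and organic ions 5 were called, and of 5 fatty acid carriers 2, all in hepatocyte-like cells (background 4.18%). Slc10a1, the sodium-dependent bile acid importer of the sinusoidal membrane, had 669 UMIs or 468 CPM (433 to 505) in hepatocyte-like cells. Kupffer-like cells had 2.26 CPM, below a mixed-in level of 4.41 CPM, and sinusoidal endothelial-like cells 2.47 CPM, below one of 5.09 CPM. In stellate-like cells it had 3.41 CPM (40 UMIs), above a mixed-in level of 0.592 CPM. Slc47a1, an exporter of organic cations, had 67.8 CPM in hepatocyte-like cells and 5.62 CPM (66 UMIs) in stellate-like cells, 12.1-fold apart (8.74 to 16.8). Slc27a2, an activating enzyme and transporter of very long fatty acids, had 465 CPM in hepatocyte-like cells and 21.3 CPM (1 UMI) in neutrophil-like cells, 21.9-fold apart (3.91 to 865), and at most 4.01 CPM in every other type. Slc27a5, which joins bile acids to coenzyme A, had 407 CPM in hepatocyte-like cells and 41.2 CPM (4 UMIs) in NK and ILC1-like cells, 9.88-fold apart (3.84 to 36.4). The family was not uniform, since Slc27a1 was highest in plasmacytoid dendritic-like (88.0 CPM, 19 UMIs) and cholangiocyte-like cells (75.4 CPM) and had 2.80 CPM in hepatocyte-like cells; Slc27a1 was picked after its values had been seen.

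Of 27 amino acid carriers 9 were called, 5 in hepatocyte-like (background 4.18%) and 4 in Kupffer-like cells (background 1.24%). Slc38a3, a sodium-coupled glutamine transporter, had 331 CPM (474 UMIs) in hepatocyte-like cells and 15.2 CPM in cholangiocyte-like cells, where the mixed-in level was 19.1 CPM. Slc38a4, a related carrier of neutral amino acids, had 483 CPM in hepatocyte-like cells, 98.6 CPM (14 UMIs) in lymphatic endothelial-like and 77.8 CPM (97 UMIs) in cholangiocyte-like cells, above mixed-in levels of 4.52 and 27.9 CPM. On the Kupffer-like side, Slc7a8, an exchanger of large neutral amino acids, had 253 CPM (244 to 263), against 42.5 CPM in monocyte-like and at most 9.83 CPM in every other type. Slc16a10, which carries aromatic amino acids, had 163 CPM in Kupffer-like cells and 51.0 CPM in hepatocyte-like cells, a ratio of 3.20 (2.53 to 4.09). Slc15a3, a lysosomal carrier of histidine and small peptides, had 312 CPM in Kupffer-like and 142 CPM (40 UMIs) in monocyte-like cells, 2.21-fold apart (1.62 to 3.09); with per-cell CPM the log2 ratio was 0.84, below 2-fold. Glutamate importers were found on both sides: Slc1a3 had 33.8 CPM in Kupffer-like cells and 0 UMIs in hepatocyte-like cells, which allows up to 2.098 CPM (3 counts). Slc1a2 had 183 CPM in hepatocyte-like and 40.8 CPM (470 UMIs) in Kupffer-like cells, where the mixed-in level was 1.73 CPM.

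Other amino acid carriers were spread over many types. Slc38a2, a neutral amino acid importer, had 721 CPM in portal and arterial endothelial-like cells, 486 CPM in lymphatic endothelial-like, 451 CPM in central vein endothelial-like and 449.8 CPM in sinusoidal endothelial-like cells, 395 CPM in hepatocyte-like and 115 CPM in Kupffer-like cells. Its close relative Slc38a1 had another pattern and was chosen after its values had been seen: 297 CPM in plasmacytoid dendritic-like, 213 CPM in conventional dendritic-like, 195 CPM in B-like, 170 CPM (96 UMIs) in T-like and 108 CPM in Kupffer-like cells, against 0.699 CPM (1 UMI) in hepatocyte-like and 0.341 CPM (4 UMIs) in stellate-like cells. Slc3a2, the heavy chain that brings several amino acid exchangers to the cell surface, had 373 CPM in portal and arterial endothelial-like, 366 CPM in plasmacytoid dendritic-like, 295 CPM in Kupffer-like, 66.3 CPM in stellate-like and 25.9 CPM (37 UMIs) in hepatocyte-like cells, the lowest of the 17 types. Slc1a5, a glutamine importer, had 116 CPM (83 UMIs) in portal fibroblast-like, 104 CPM (8 UMIs) in B-like and 88.8 CPM in mesothelial-like cells and 1.40 CPM in hepatocyte-like cells. Slc6a6, the taurine importer, had 285 CPM in cholangiocyte-like, 245 CPM in portal and arterial endothelial-like and 234 CPM in Kupffer-like cells and 44.1 CPM in hepatocyte-like cells. Hepatocyte-like cells thus had low levels of Slc3a2, Slc1a5 and Slc38a1 while Slc38a2 was near its endothelial level.

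Of 15 sugar carriers 2 were called (13.3%, background over any type 12.8%), Slc5a1 in cholangiocyte-like and Slc37a4 in hepatocyte-like cells. Slc5a1, the sodium-driven glucose importer, had 263 UMIs or 211 CPM (186 to 238) in cholangiocyte-like cells, 5 UMIs in Kupffer-like cells (0.434 CPM) and 1 UMI in sinusoidal endothelial-like cells. It had 0 UMIs in the hepatocyte-like type, which allows up to 2.098 CPM (3 counts), and its ratio of 486 over the next type (205 to 1508) was the largest of the 44. Slc2a2, the glucose carrier of hepatocytes, had 279.8 CPM (251 to 311) in cholangiocyte-like and 179.7 CPM (158 to 203) in hepatocyte-like cells, intervals that did not overlap, while the mixed-in level in cholangiocyte-like cells was 10.4 CPM. In all other types with more than 100 cells it had at most 1.82 CPM. Slc2a1, a widespread glucose carrier, had 213 CPM (10 UMIs) in neutrophil-like cells, 51.3 CPM in cholangiocyte-like, 19.2 CPM in Kupffer-like and 4.196 CPM (6 UMIs) in hepatocyte-like cells. Slc2a3, which carries glucose in neurons and leukocytes, had 213 CPM (10 UMIs) in neutrophil-like, 51.5 CPM (5 UMIs) in NK and ILC1-like and 28.3 CPM in T-like cells and 0 UMIs in hepatocyte-like cells. Slc37a4, which brings glucose 6-phosphate into the endoplasmic reticulum for glucose release, had 82.5 CPM (118 UMIs) in hepatocyte-like and 38.95 CPM (3 UMIs) in B-like cells, a ratio of 2.12 whose interval, 0.707 to 10.4, includes 1, and 3 alternatives took it below 2-fold.

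Of 11 carriers of carboxylates and phosphate 2 were called (18.2%, background over any type 12.8%), 1 in mesothelial-like and 1 in hepatocyte-like cells. Slc16a1, which carries lactate and pyruvate with a proton, had 1236 UMIs or 617 CPM (583 to 652) in mesothelial-like cells, against 29.4 CPM (42 UMIs) in hepatocyte-like and 22.4 CPM in cholangiocyte-like cells, a ratio to hepatocyte-like cells of 21.0 (15.4 to 29.3). Slc16a3, the lactate carrier of glycolytic cells, had 723 CPM in neutrophil-like cells, but these were 34 UMIs of 21 cells, too few for the 50-UMI rule. It had 49.5 CPM in monocyte-like and 12.2 CPM in Kupffer-like cells and 0 UMIs in hepatocyte-like cells. Slc16a9, chosen after its values had been seen, had 159.6 CPM in Kupffer-like and 100.5 CPM in stellate-like cells and at most 28.2 CPM elsewhere. In the 4 cells of replicate 1 that met the stellate gate it had 0 UMIs, where its level in replicate 2 would give 5.67 UMIs.

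**Figure D3:**
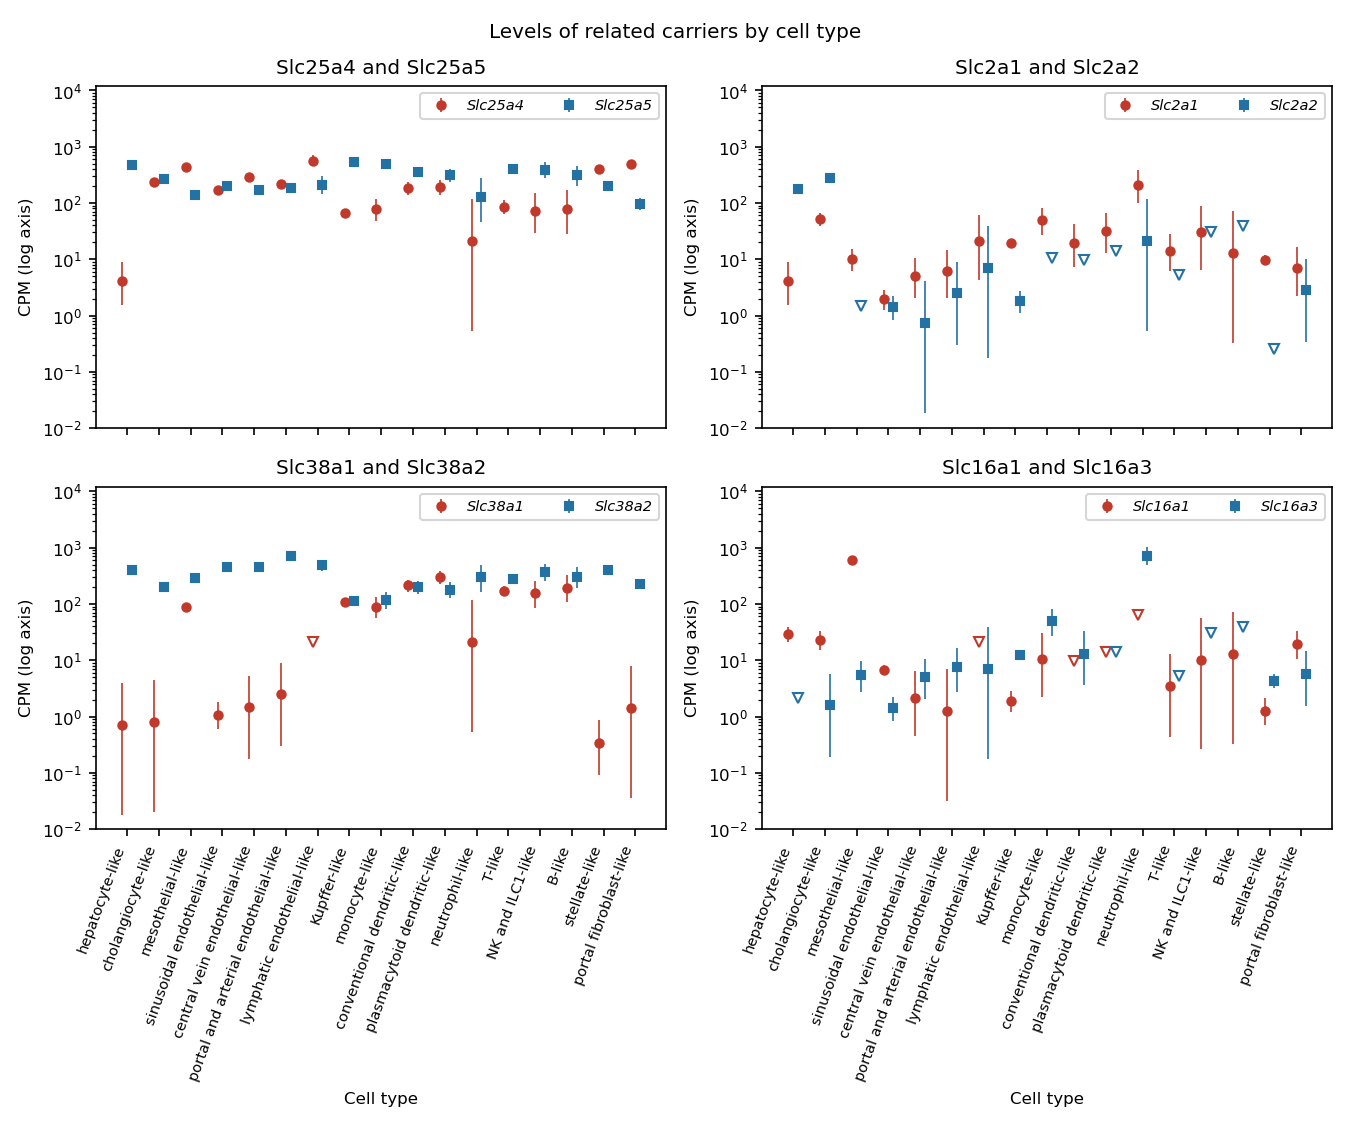
Levels of 4 pairs of related carriers in 17 cell types (y axis, CPM on a log axis; circles and squares, the pooled level; lines, 95% Poisson interval; open triangles, 0 UMIs drawn at the level of 3 counts). Slc25a4 is lowest in hepatocyte-like cells at 4.196 CPM, where Slc25a5 had 478 CPM; Slc16a1 is highest in mesothelial-like and Slc16a3 in neutrophil-like cells. Each gene is to be read across the types and not against its partner.

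Of 23 metal carriers 4 were called (17.4%) and of 22 ion carriers 4 (18.2%), in 6 types between them (background over any type 12.8%). Slc39a8, an importer of zinc, manganese and iron, had 730.1 CPM (693 to 768) in mesothelial-like, 249 CPM in sinusoidal endothelial-like, 218 CPM in central vein endothelial-like and 23.8 CPM in hepatocyte-like cells. Slc4a4, a sodium bicarbonate cotransporter, had 356 CPM in mesothelial-like, 172 CPM in cholangiocyte-like and 94.4 CPM in hepatocyte-like cells, so all 3 epithelium-like types held it, and 2.81 CPM in stellate-like cells. Without the cells of most UMIs its lead fell below 2-fold, to a log2 ratio of 0.91. Slc11a1, which exports metals from the phagosome and affects resistance to intracellular bacteria, had 307 CPM in Kupffer-like, 170.1 CPM (8 UMIs) in neutrophil-like and 142 CPM (40 UMIs) in monocyte-like cells and at most 13.1 CPM in the other types. Slc8b1, the sodium-calcium exchanger of mitochondria, had 187 CPM in Kupffer-like and 88.5 CPM (27 UMIs) in conventional dendritic-like cells, 2.12-fold apart (1.45 to 3.22). Slc12a7, a potassium-chloride cotransporter, had 170.4 CPM in portal and arterial endothelial-like cells and 57.8 CPM in Kupffer-like cells, 2.95-fold apart (2.43 to 3.55). Slc41a1, a magnesium carrier, had 387 CPM (55 UMIs) in the 26 lymphatic endothelial-like cells and 65.5 CPM (20 UMIs) in conventional dendritic-like cells; under a gate of double marker UMIs its lead was lost. In cholangiocyte-like cells the zinc importer Slc39a4 had 92.2 CPM, against 35.2 CPM (5 UMIs) in lymphatic endothelial-like cells, and Slc12a8 had 55.3 CPM, against 8.60 CPM in Kupffer-like cells. Slc35f5, counted with the carriers of nucleosides and nucleotide sugars, had 75.4 CPM in cholangiocyte-like and 35.3 CPM in sinusoidal endothelial-like cells.

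Mitochondrial carriers of the Slc25 family were 37 members, and 9 of them stood at least 2-fold higher in hepatocyte-like cells than in every other type (background 4.18%). Slc25a47, a carrier of hepatocyte mitochondria, had 503 CPM (720 UMIs) in hepatocyte-like and 12.8 CPM in cholangiocyte-like cells, 39.3-fold apart (24.01 to 69.0). The urea cycle carriers were among them: Slc25a15, which exchanges ornithine for citrulline, had 227 CPM in hepatocyte-like and 23.2 CPM in cholangiocyte-like cells, and Slc25a13, the aspartate-glutamate carrier, had 213 CPM in hepatocyte-like and 37.7 CPM in cholangiocyte-like cells. The citrate carrier Slc25a1 had 240 CPM in hepatocyte-like and 55.3 CPM in cholangiocyte-like cells. Its level was thus 4.34-fold apart (3.34 to 5.70). Slc25a20, which brings acylcarnitines into mitochondria, was highest outside hepatocyte-like cells, with 190 CPM (58 UMIs) in the 27 conventional dendritic-like cells against 83.2 CPM in hepatocyte-like cells, 2.28-fold apart (1.64 to 3.15), and just below 2-fold under double marker UMIs (log2 ratio 0.998). Slc25a13 and Slc25a1 fell outside the rule for named genes and were picked for their known roles after their values had been seen.

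The ADP/ATP carriers, which exchange the nucleotides across the inner mitochondrial membrane, had different patterns over the types. Slc25a4 had 6 UMIs or 4.196 CPM (1.54 to 9.13) in hepatocyte-like cells, 66.01 CPM in Kupffer-like, 84.8 CPM in T-like and 173 CPM in sinusoidal endothelial-like cells, against 399.8 CPM in stellate-like, 439.6 CPM in mesothelial-like, 497 CPM in portal fibroblast-like and 563 CPM (80 UMIs) in lymphatic endothelial-like cells. Slc25a5 had 527 CPM in Kupffer-like, 502 CPM in monocyte-like, 478 CPM in hepatocyte-like and 399 CPM in T-like cells, against 201 CPM in stellate-like, 137 CPM in mesothelial-like and 96.5 CPM in portal fibroblast-like cells. Slc25a4 was thus lowest, and Slc25a5 among the 3 highest, in hepatocyte-like cells.

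Evenly spread members included several mitochondrial carriers. Over the 7 types with at least 100 cells, 11 members (5.67%, background 5.36%) stayed within 2-fold between the highest and the lowest type, and 6 of these belong to the Slc25 family. Slc25a11, the oxoglutarate-malate carrier, had its highest level, 57.9 CPM, in mesothelial-like and its lowest, 42.1 CPM, in stellate-like cells, a ratio of 1.38, and Slc25a3, the phosphate carrier, 496 CPM in Kupffer-like and 303 CPM in central vein endothelial-like cells, a ratio of 1.63. Slc25a46, Slc25a32, Slc25a38 (a glycine carrier) and Slc30a5 (a zinc carrier of the Golgi apparatus) had ratios of 1.54, 1.59, 1.64 and 1.72. The share of even members was close to that of all genes.

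Sequence before the gene start is shown for members at both ends of this range, to set the hepatocyte-high Slc10a1 and Slc25a47 and the cholangiocyte-high Slc5a1 beside the ADP/ATP carriers and the even Slc25a3 and Slc25a11. Each run is the 250 bases before the RefSeq start of the gene, 5' to 3' in the direction of transcription, in the assembly GRCm38.p6, with every CG dinucleotide in capitals. The windows are Slc10a1 at chr12:80968706-80968955 (minus strand, 1 CG), Slc25a47 at chr12:108850879-108851128 (plus strand, 6 CG), Slc5a1 at chr5:33103969-33104218 (plus strand, 6 CG), Slc25a4 at chr8:46211063-46211312 (minus strand, 18 CG), Slc25a5 at chrX:36795347-36795596 (plus strand, 14 CG), Slc25a3 at chr10:91123968-91124217 (minus strand, 27 CG) and Slc25a11 at chr11:70647040-70647289 (minus strand, 19 CG).
Slc10a1: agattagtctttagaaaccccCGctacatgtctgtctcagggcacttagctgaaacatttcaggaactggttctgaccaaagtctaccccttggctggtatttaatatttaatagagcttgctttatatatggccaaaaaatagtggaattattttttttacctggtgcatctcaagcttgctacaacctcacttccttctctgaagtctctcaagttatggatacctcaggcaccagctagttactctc
Slc25a47: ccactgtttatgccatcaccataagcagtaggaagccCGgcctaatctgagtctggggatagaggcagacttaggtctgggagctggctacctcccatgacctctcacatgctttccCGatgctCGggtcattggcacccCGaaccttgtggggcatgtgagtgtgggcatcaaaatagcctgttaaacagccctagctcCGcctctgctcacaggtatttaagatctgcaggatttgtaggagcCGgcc
Slc5a1: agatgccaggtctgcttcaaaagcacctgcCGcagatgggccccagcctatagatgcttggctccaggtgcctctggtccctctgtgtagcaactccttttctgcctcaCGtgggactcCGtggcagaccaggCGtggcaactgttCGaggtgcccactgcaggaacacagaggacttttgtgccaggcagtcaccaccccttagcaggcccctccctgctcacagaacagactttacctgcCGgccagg
Slc25a4: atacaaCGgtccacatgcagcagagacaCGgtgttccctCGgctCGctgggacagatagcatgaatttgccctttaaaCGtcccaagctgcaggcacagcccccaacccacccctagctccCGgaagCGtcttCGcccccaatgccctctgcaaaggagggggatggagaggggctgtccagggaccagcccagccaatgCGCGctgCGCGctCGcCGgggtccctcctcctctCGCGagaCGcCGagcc
Slc25a5: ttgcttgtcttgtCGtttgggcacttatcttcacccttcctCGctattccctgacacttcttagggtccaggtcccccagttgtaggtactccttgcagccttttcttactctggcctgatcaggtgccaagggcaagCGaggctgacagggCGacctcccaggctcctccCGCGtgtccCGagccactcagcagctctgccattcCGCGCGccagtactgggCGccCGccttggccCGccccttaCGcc
Slc25a3: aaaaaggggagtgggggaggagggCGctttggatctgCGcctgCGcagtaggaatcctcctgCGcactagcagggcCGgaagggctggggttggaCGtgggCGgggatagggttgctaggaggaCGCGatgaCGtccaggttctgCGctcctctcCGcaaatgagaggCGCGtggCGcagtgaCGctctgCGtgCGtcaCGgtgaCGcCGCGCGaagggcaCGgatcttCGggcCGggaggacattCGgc
Slc25a11: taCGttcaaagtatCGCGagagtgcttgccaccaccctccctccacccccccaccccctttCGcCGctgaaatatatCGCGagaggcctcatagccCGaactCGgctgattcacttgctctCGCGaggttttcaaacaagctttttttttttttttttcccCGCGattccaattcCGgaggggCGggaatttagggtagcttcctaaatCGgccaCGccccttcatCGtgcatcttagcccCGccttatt

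RefSeq promoters were matched by symbol for 148 of the 194 members. The median number of CG dinucleotides in the 250 bases was 9 over the 21 matched hepatocyte-high members, 14 over the 13 matched members called in other types, 19 over the 7 matched even members and 14 over the other 107. Over all matched members it was 13, and over 9005 matched genes with at least 200 UMIs it was 16. The 379 matched genes of any name that were at least 2-fold higher in hepatocyte-like cells had a median of 6. The sets overlapped widely, with hepatocyte-high members between 0 and 35 and even members between 12 and 27. The letters TATAAA, searched on both strands, were in 1 of the 21 hepatocyte-high members (4.76%), in 7 of 148 members (4.73%) and in 6.52% of the 9005 genes. CCAAT on either strand was in 38.1% of the hepatocyte-high members, 31.8% of all matched members and 36.2% of the 9005 genes. Among the 379 matched genes of any name that were high in hepatocyte-like cells, TATAAA was in 14.2% and CCAAT in 46.4%.

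**Figure D4:**
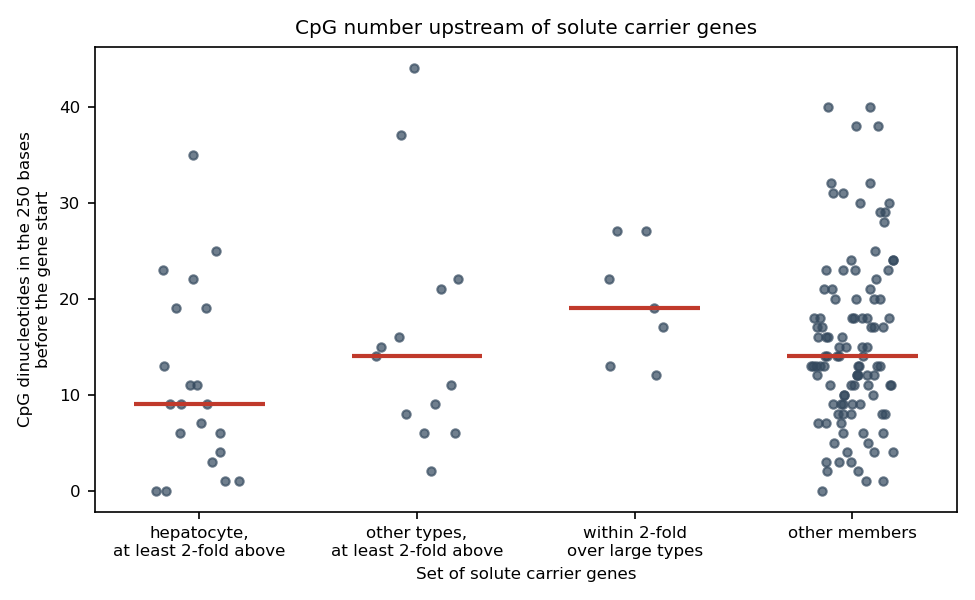
Number of CG dinucleotides in the 250 bases before the gene start (y axis) for 4 sets of solute carrier genes (x axis; points, genes; red line, median). The medians are 9 for hepatocyte-high members, 14 for members high in another type, 19 for even members and 14 for the rest, and the points of the sets overlap.

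Of 26 carriers of nucleosides, nucleobases and nucleotide sugars 3 were called (11.5%, background over any type 12.8%). Those with the most UMIs, Slc29a1 and Slc43a3, were not called. Slc29a1, the equilibrative nucleoside carrier that takes up adenosine, had 952 CPM (901 to 1004) in central vein endothelial-like, 689 CPM in sinusoidal endothelial-like, 378 CPM in Kupffer-like, 302 CPM in stellate-like and 93.7 CPM in hepatocyte-like cells. Slc43a3, a purine nucleobase carrier, had 1055 CPM in central vein endothelial-like, 723 CPM in stellate-like, 628 CPM in sinusoidal endothelial-like, 557 CPM in portal fibroblast-like and 21.7 CPM in hepatocyte-like cells. Neither reached 2-fold over the next type, and Slc29a1 passed it once the other endothelial-like types were set aside. Counted against other lineages only, 51 members were called (26.3%, background 18.4%), among them 7 in the endothelial-like lineage (3.61%, background 4.16%), 10 in the myeloid-like lineage (5.15%, background 3.84%), 0 in the mesenchymal-like lineage (background 2.93%) and 0 in the lymphoid-like lineage (background 0.665%). The endothelial-like genes included Slc25a37, which brings iron into mitochondria, with 172 CPM in central vein endothelial-like, 118 CPM in sinusoidal endothelial-like and 34.3 CPM in hepatocyte-like cells, and Slc26a10, with 139 CPM in central vein endothelial-like, 100.5 CPM in sinusoidal endothelial-like and 12.5 CPM in stellate-like cells. Among vitamin and choline carriers, Slc52a3, a riboflavin carrier, had 64.7 CPM (52 UMIs) in portal and arterial endothelial-like and 28.97 CPM in central vein endothelial-like cells, a lead that 2 alternatives took below 2-fold (per-cell CPM, log2 ratio 0.73, and double marker UMIs, 0.57). Slc44a2, a choline carrier-like protein, had 412 CPM (89 UMIs) in the 32 plasmacytoid dendritic-like cells and 169 CPM in portal and arterial endothelial-like cells.

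The members that are named after a carrier were also uneven. Slc9a3r2, a scaffold protein that binds the sodium-proton exchanger, had 520 CPM in portal and arterial endothelial-like, 479 CPM in lymphatic endothelial-like, 398 CPM in stellate-like and 11.2 CPM in hepatocyte-like cells. Slc9a3r1, the related scaffold of epithelial surfaces, had 378 CPM in mesothelial-like, 227 CPM in cholangiocyte-like and 150.3 CPM in hepatocyte-like cells.

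Stellate-like cells, 2312 of the 2313 cells of replicate 2 that met exactly 1 gate, had no member called. They were the highest type for 3 members (1.55%, background 5.85%), Slc4a8, Slc25a35 and Slc35a1, none past 2-fold. Slc4a8, a sodium-driven bicarbonate exchanger, had 49.4 CPM in stellate-like and 27.4 CPM in mesothelial-like cells, Slc35a1, which brings CMP-sialic acid into the Golgi apparatus, 46.6 CPM in stellate-like and 38.5 CPM in cholangiocyte-like cells, and Slc25a35 12.2 CPM (143 UMIs) in stellate-like cells. In replicate 1 only 4 cells met the stellate gate, with 56417 UMIs, and members took 0.636% of them, against 0.592% in replicate 2. Slc43a3 had 585 CPM (403 to 821) in the 4 cells, against 723 CPM in replicate 2, and Slc25a4 had 248 CPM (136 to 416), against 399.8 CPM. Slc29a1 had 461 CPM (301 to 675) in the 4 cells, against 302 CPM in replicate 2, so the interval just reached that value.

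Position along the sinusoid was read from landmark genes within 3 types. Cells of a type were ranked by 4 central and 4 portal landmarks (for hepatocyte-like cells Glul, Oat, Cyp1a2 and Gulo against Cyp2f2, Hal, Sds and Hsd17b13), split into 3 equal ranges, and the central range was set against the portal range over members with at least 30 UMIs in both together. Sinusoidal endothelial-like landmarks were Wnt2, Kit, Rspo3 and Thbd against Efnb2, Dll4, Ltbp4 and Ntn4. Stellate-like landmarks were Adamtsl2, Loxl1, Podn and Spon2 against Ngfr, Itgb3, Igfbp3 and Il34. A landmark left out of its own ranking was 8.57- to 276-fold higher on its side in hepatocyte-like cells. The range was 1.86- to 23.3-fold in sinusoidal endothelial-like and 2.39- to 6.34-fold in stellate-like cells. Ranges had 67 hepatocyte-like, 798 sinusoidal endothelial-like and 770 stellate-like cells, and 46, 350 and 346 cells lay near a boundary. The hepatocyte-like ranges differed in depth, with a median of 7067 UMIs per cell in the central and 2727 in the portal range, and the part of depth in these differences was not tested.

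In hepatocyte-like cells 71 members had enough UMIs. Of these, 10 passed 2-fold on the central side (14.1%, background 9.33%) and 0 on the portal side (background 2.62%). Nearest to it on the portal side were Slc38a3 (1.97-fold, 1.62 to 2.41) and Slc7a2 (1.95-fold, 1.48 to 2.58). Slc17a2 followed at 1.94-fold (1.37 to 2.76). Over all genes the median log2 ratio of central to portal range was 0.206, and over the members 0.176. The 2-fold limit was thus farther off on the portal side. Slc1a2, the glutamate importer, had all of its 262 hepatocyte-like UMIs in the central range: 366 CPM there and 0 UMIs in the portal range, at least 61.1-fold higher against a floor of 3 counts per range, with a counting interval at that floor of 20.7 to 298. Glutamate uptake next to glutamine synthesis is a known trait of the hepatocytes around the central vein, where the landmark Glul, the glutamine synthetase, is made. Slc25a30 had 127 CPM in the central and 29.9 CPM in the portal range, 4.24-fold apart (2.44 to 7.89). Slc16a10 had 79.5 CPM in the central and 23.9 CPM in the portal range, 3.32-fold apart (1.76 to 6.80). Slc25a20, Slc25a33, Slc16a7, Slc39a1, Slc22a23 and Slc35a3 had ratios between 2.15 and 2.80. With each cell weighted equally, 21 members passed 2-fold, and with at most 10% mitochondrial UMIs 6 did, counts that were not made over all genes. The equal weighting also took Slc25a30, Slc35a3 and Slc39a1 below 2-fold, and the mitochondrial limit Slc25a20, Slc22a23 and Slc35a3.

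Sinusoidal endothelial-like cells had 5 of 155 members higher in the central range (3.23%, background 1.18%) and 2 in the portal range (1.29%, background 1.27%). Slc45a4 was the sharpest, with 8 UMIs (1.89 CPM) in the central and 215 UMIs (49.6 CPM) in the portal range, 26.3-fold higher in the portal range (13.1 to 61.7). The same gene had 72.1 CPM in portal and arterial endothelial-like cells, the highest of the 17 types. Slc12a7, which was called in portal and arterial endothelial-like cells, had 15.8 CPM in the central and 31.6 CPM in the portal range, 2.001-fold higher in the portal range (1.48 to 2.72). On the central side, Slc25a37 had 160.6 CPM in the central and 76.6 CPM in the portal range, 2.096-fold apart (1.84 to 2.40). Slc16a12, a creatine carrier, Slc2a9, a urate carrier, and Slc18a2, a vesicular monoamine carrier, had 9.43, 8.96 and 19.1 CPM in the central range and 2.31, 3.23 and 7.15 CPM in the portal range. Slc7a2 rested on 20 UMIs in the central and 10 in the portal range, 2.04-fold apart, and its interval (0.913 to 4.89) included 1. Slc12a7 fell below 2-fold under 4 alternatives, with a log2 ratio as near to 0 as -0.84, and Slc25a37 under 1. Slc7a2 fell below 2-fold under 1 alternative as well, to a log2 ratio of 0.41.

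In stellate-like cells 3 of 153 members were higher in the central range (1.96%, background 1.3%) and 1 in the portal range (0.654%, background 1.13%), shares near those of all genes. Slc5a3, the myo-inositol importer, had 55.4 CPM (210 UMIs) in the central and 19.4 CPM (78 UMIs) in the portal range, 2.85-fold apart (2.19 to 3.74). The other 3, Slc18b1, Slc25a42 and Slc25a15, rested on 32 to 35 UMIs each, and the intervals of Slc25a42 and Slc25a15 included 1.

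**Figure D5:**
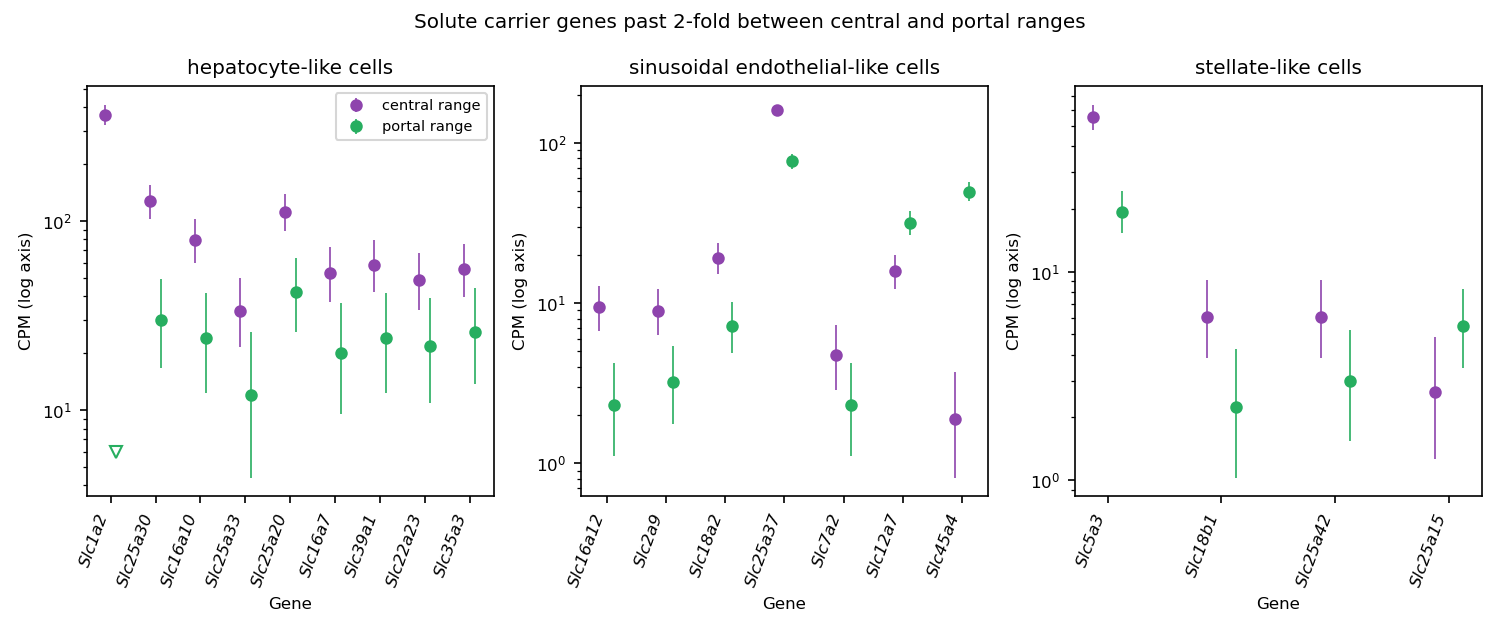
Levels of solute carrier genes past 2-fold between the central and portal ranges of hepatocyte-like, sinusoidal endothelial-like and stellate-like cells (y axis, CPM on a log axis; purple, central range; green, portal range; lines, 95% Poisson interval; open triangle, 0 UMIs drawn at 3 counts). Slc1a2 in hepatocyte-like cells and Slc45a4 in sinusoidal endothelial-like cells stand furthest apart, at 366 against 0 CPM and 1.89 against 49.6 CPM.

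Transporters of other families, in lists written from general knowledge, were read by the same rule. Of 13 ABC exporters 6 were called, of 8 organic anion transporting polypeptides 2, and of 10 other carriers and pumps 2, beside a background of 12.8% of all genes. Hepatocyte-like cells held the bile salt exporter Abcb11 at 196 CPM, the conjugate exporter Abcc2 at 210 CPM and the organic anion importers Slco1b2 at 1303 CPM and Slco1a1 at 297 CPM, beside the Slc10a1 given above. Kupffer-like cells held Abca1, the cholesterol exporter, at 839 CPM, 7.88-fold above central vein endothelial-like cells, and mesothelial-like cells the multidrug exporter Abcb1b at 229 CPM. Slco2a1, the prostaglandin carrier, had 443 CPM in portal and arterial endothelial-like and 390 CPM in central vein endothelial-like cells, and Aqp1, a water channel, 3476 CPM in sinusoidal endothelial-like and 3130 CPM in central vein endothelial-like cells. Slco2b1, an organic anion importer, was highest in stellate-like cells at 151 CPM, 1.65-fold above lymphatic endothelial-like cells.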

How the data were processed

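Single cells of 2 wild-type samples were sequenced. Values are raw UMI counts as deposited, per gene and cell, and the submitters' processing notes name Cell Ranger 2.1.1, Seurat 3.1 and GRCm38. A barcode's ending was read as its replicate, and 5 barcodes occur in both samples. A cell was kept if it had 200 genes or more and no more than 20% mitochondrial UMIs, which removed 597 cells (8.11%) of replicate 1 and 0 of replicate 2. Each type was gated on UMIs of markers from a list, with minimums set after the marker sums, but not the carrier values, had been seen. Vwf, Gja4, Ltbp4 and Ebf1 were left out of their gates since other types held them. Cells of several gates (241) or none (585) were left out, and this is how doublets were treated; no doublet caller was run. Smooth muscle-like cells (17) were too few. Free RNA was not subtracted. The mixed-in level is a gene's level in hepatocyte-like cells times the type's share of hepatocyte markers relative to theirs.

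Counts were summed per type in the library that held it and scaled to CPM (Python 3.11.15, numpy 2.4.6, pandas 2.3.3, scipy 1.17.1, matplotlib 3.10.9). Ratio intervals are exact binomial at 95%. Intervals cover counting error only, and a value of 0 was set to 3 counts in a ratio. Levels are not compared between genes. The scripts were tested on simulated data. Members and lists were chosen with earlier results of these data known. Named genes are, per type, up to 4 called members with the largest ratio; the 10 with the highest mean CPM; the 6 most even; those next to the limit of 200 UMIs; up to 4 per side of each central to portal comparison; a fixed list of 15 well-known carriers; and up to 4 per list of other transporters. Genes outside it are Slc27a1, Slc38a1, Slc38a3, Slc38a4, Slc16a9, Slc37a4, Slc8b1, Slc25a1, Slc25a13, Slc26a10, Slc4a8, Slc25a35, Slc35a1, Slc25a33, Slc16a7, Slc39a1, Slc22a23, Slc35a3, Slc7a2, Slc17a2, Abcb11, Abcc2 and Slco2b1, chosen after their values were seen. Alternatives changed the scaling, gate, cell filters, count filter and types used. 1 gene of the name pattern was not analysed here, and 1 member enters the counts but is not reported here by itself.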

Additional observations from a re-analysis of the deposited data

How the results depend on the processing

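The number of members at least 2-fold above every other type was 44, and 39 to 63 under the alternatives, with 47 when replicate 2 and its stellate-like cells were left out. For hepatocyte-like cells it was 27, and 22 to 29. Except for the total against other lineages, the counts under the alternatives were not made over all genes and have no background share. The even members numbered 11, and 7 with per-cell CPM weighted equally. The hepatocyte-like share of UMIs, 0.980%, was 0.856% with per-cell CPM, 1.08% with mitochondrial genes out of the total, 0.897% with at most 10% mitochondrial UMIs and 0.955% without the 5% of cells with most UMIs. The per-cell value lies below the pooled 0.860% of central vein endothelial-like cells, whose share was not recomputed. Members past 2-fold between hepatocyte-like ranges, 10, were 21 with per-cell CPM, 6 with at most 10% mitochondrial UMIs and 25 with no filter on low counts; with no filter the sinusoidal endothelial-like count of 7 became 16 and the stellate-like count of 4 became 10, which follows from members with few UMIs entering. Slc41a1, with few lymphatic endothelial-like cells, turned from its lead to a log2 ratio of -0.65 under double marker UMIs. The 44 called members were also followed by their ratio to the type that had been next before any alternative was applied. In every alternative that gave this ratio it stayed at least 2-fold for 32 of them. For 12 it fell below 2-fold in 1 to 3 alternatives: Slc15a3, Slc22a18, Slc25a20, Slc25a22, Slc25a39, Slc35d1, Slc35d2, Slc37a4, Slc41a1, Slc4a4, Slc52a3 and Slc6a13. The remaining types were not compared again in these ratios, so the 32 are not calls made anew. Of the 21 central to portal calls 11 fell below 2-fold in 1 to 4 alternatives. The Kupffer-like count of 5 became 11 with types of at least 80 cells and 8 against other lineages only. The causes were not tested. Without replicate 1 only stellate-like cells were left, so no comparison was possible. No paired analysis was possible because there was 1 group and no type had 20 cells in both replicates. The types of 21 to 33 cells limit every statement on the next-highest type, since 1 UMI there can set it.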
